A study of Homo sapiens with 44 samples.

Results

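The mitosis and kinetochore genes are 36 genes that were picked by gene symbol from the 19923 genes of the deposited count tables, and all 36 symbols were found. They are cyclins and their kinase (CDK1, CCNA2, CCNB1, CCNB2), mitotic kinases (PLK1, AURKA, AURKB), the spindle checkpoint and the anaphase machinery (BUB1, BUB1B, MAD2L1, TTK, CDC20, UBE2C, PTTG1), and centromere and kinetochore proteins (CENPA, CENPE, CENPF, NDC80, NUF2, SPC24, SPC25). The others are the passenger complex (INCENP, BIRC5, CDCA8), motors and spindle or cytokinesis proteins (KIF11, KIF23, KIF20A, KIF2C, TPX2, PRC1, ANLN, ECT2, NUSAP1, HMMR), the topoisomerase TOP2A and the proliferation marker MKI67.

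Transcripts of this kind rise late in the cell cycle, when a cell prepares to divide, and fall again once it has divided, so a bulk RNA sample of dividing cells holds more of them than one of resting cells. Their promoters are known for recurring elements, among them the CHR, bound by the DREAM and MuvB complexes, and the CCAAT box, bound by NF-Y. The modification N6-methyladenosine (m6A) is placed on messenger RNA by METTL3 together with METTL14, and can alter how long a transcript lasts and how well it is translated.

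STM2457, a small molecule that inhibits METTL3, was compared with DMSO in the neuroblastoma lines Kelly and NGP, both labelled as MYCN-amplified and as wild type in genotype. Kelly cells were cultured with 8 µM STM2457 or with DMSO for 1 day or for 6 days, and NGP cells for 6 days, with 3 samples in each group. The 4th experiment used subcutaneous Kelly tumours in nude mice, a host without mature T cells, given 50 mg/kg STM2457 or vehicle (labelled DMSO) daily for 14 days, with 2 samples in each group. Each group was sequenced as poly(A) RNA before antibody enrichment (input) and as the fragments bound by an m6A antibody (RIP), which makes 44 libraries in 16 groups. The labels do not say whether an input and a RIP library of the same number came from the same sample, nor whether samples of a group came from separate cultures or animals, so the p-values measure the spread between these samples, which may be technical.

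Library totals ran from 24.07 M to 26.56 M counts in the Kelly 1 day inputs (M, mega), 5.77 M to 31.49 M at 6 days, 5.49 M to 11.6 M in NGP and 2.14 M to 7.27 M in the xenografts, and from 4.68 M to 36.5 M in the RIP libraries. The 36 genes together took 0.534% to 0.593% of the input counts of Kelly at 1 day, 0.291% to 0.322% at 6 days, 0.45% to 0.592% in NGP and 0.18% to 0.239% in the xenografts, whose tumours also hold mouse cells. All 9 neuroblastoma markers examined were above 1 CPM (the count scaled to the library's size) in every input library, except in NGP with DMSO, where 8 of 9 were. Of 6 markers of connective tissue, 2 were above 1 CPM in every xenograft input and COL1A2, DCN and LUM were at 0, and their sum was 113 to 165 CPM there, against 77 to 188 CPM in the culture inputs. The 3 markers of endothelium summed to 9.79 to 17.3 CPM in the xenografts and to at most 3.52 CPM in culture, and the 5 of blood to at most 7.52 and 12.1 CPM. The part of such cells in the results was not tested. The RIP library of STM2457 replicate 1 in Kelly at 6 days stood apart: the members took 0.908% of its counts, against 0.302% and 0.376% in the other STM2457 RIP libraries of that experiment and 0.354% to 0.521% in the DMSO ones. Counts of NUSAP1 and PRC1 are uncertain, because 81.4% and 57.6% of their exon bases lie in exons of other genes. PTTG1 is uncertain as well, since near-identical copies of it exist in the genome.

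The promoters are shown here because such genes are known for shared elements near their start, and because the rule that chose them did not use sequence. Of the 36 genes, 31 had an entry of 300 bases in the RefSeq promoter table (GRCh38.p14, 250 bases before to 50 after the start). The windows printed run from 60 bases before to 20 bases after the start, on the gene's strand, 5′ to 3′. Capitals mark TTTGAA, the core of many CHR elements, and CCAAT, both searched on both strands, so that TTCAAA and ATTGG count as well. Matches that touch or overlap form a longer run of capitals.
PLK1 (chr16:23678829-23678908, plus strand): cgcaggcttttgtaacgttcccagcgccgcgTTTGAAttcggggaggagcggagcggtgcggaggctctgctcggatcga
CCNB2 (chr15:59105086-59105165, plus strand): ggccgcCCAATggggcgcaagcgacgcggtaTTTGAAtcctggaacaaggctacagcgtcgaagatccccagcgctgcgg
BUB1B (chr15:40161009-40161088, plus strand): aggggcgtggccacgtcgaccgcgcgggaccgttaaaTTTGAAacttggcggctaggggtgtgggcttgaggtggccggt
CDCA8 (chr1:37692456-37692535, plus strand): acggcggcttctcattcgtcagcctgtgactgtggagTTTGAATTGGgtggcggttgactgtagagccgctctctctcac
CENPA (chr2:26785996-26786075, plus strand): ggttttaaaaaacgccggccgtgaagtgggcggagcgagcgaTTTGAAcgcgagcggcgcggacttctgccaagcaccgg
SPC25 (chr2:168890411-168890490, minus strand): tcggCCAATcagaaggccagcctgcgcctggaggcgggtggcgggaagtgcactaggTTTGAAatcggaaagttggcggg
ANLN (chr7:36389802-36389881, plus strand): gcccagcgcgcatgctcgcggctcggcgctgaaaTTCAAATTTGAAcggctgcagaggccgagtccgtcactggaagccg
MKI67 (chr10:128126404-128126483, minus strand): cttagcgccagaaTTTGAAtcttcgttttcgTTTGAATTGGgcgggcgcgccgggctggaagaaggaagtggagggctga
PTTG1 (chr5:160421795-160421874, plus strand): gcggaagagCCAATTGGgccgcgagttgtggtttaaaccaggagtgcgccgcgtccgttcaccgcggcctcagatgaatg

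TTTGAA lay in the 300 bases of 22 of the 31 members (71.0%), against 15.4% of the 27305 promoters of the table. Within 50 bases on either side of the start it lay in 18 members (58.1%), against 4.67% of all promoters. CCAAT lay in 25 members (80.6%), against 35.7%, and both motifs lay in 18 members (58.1%), against 6.08%. The 9 windows printed are examples and do not give the share or the position of the motif over the members. In 7 of them TTTGAA begins 18 to 47 bases before the start. Of those not printed, CCNB1, CCNA2 and AURKB have no TTTGAA in the 300 bases, and CDC20 has it 65 and 178 bases before the start. SPC25 has it 3 bases before the start, and PTTG1 has none. A match is a stretch of letters and was not tested as a binding site.

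In Kelly cells after 1 day, the members' input RNA was slightly lower with STM2457. Of the 36 genes, 11 fell and 0 rose, beside 8.06% of all 13246 genes tested that fell and 9.41% that rose (edgeR's quasi-likelihood test, Benjamini-Hochberg adjusted over all genes tested, threshold 0.05). Without adjustment 20 members had a lower level at a p below 0.05 and 0 a higher one, beside 4058 of the 13246 genes in either direction. By DESeq2 14 members fell and 0 rose. The log2 change was below 0 for 33 of 36 members, with a median of -0.16 against 0.01 over all genes tested. The falls were small: the largest called, of CDC20, was 0.53 on the log2 scale. In bulk RNA, fewer dividing cells and less RNA per dividing cell cannot be told apart, here and in every input comparison that follows.

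After 6 days in Kelly, 17 of the 35 members tested fell and 1 rose, beside 14.7% of all 12773 genes tested that fell and 11.9% that rose. The median log2 change was -0.29 against -0.00 over all genes, and 31 of 35 members were below 0. NUSAP1 did not pass the filter on low counts. The falls passed the test at both times for 9 members, each time against DMSO samples of the same experiment: CCNB1, PLK1, AURKB, BUB1B, CDC20, KIF2C, CDCA8, SPC25 and PTTG1 (9 of the 35 tested at both times, beside 4.37% of the 12526 genes tested at both).

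**Figure D1:**
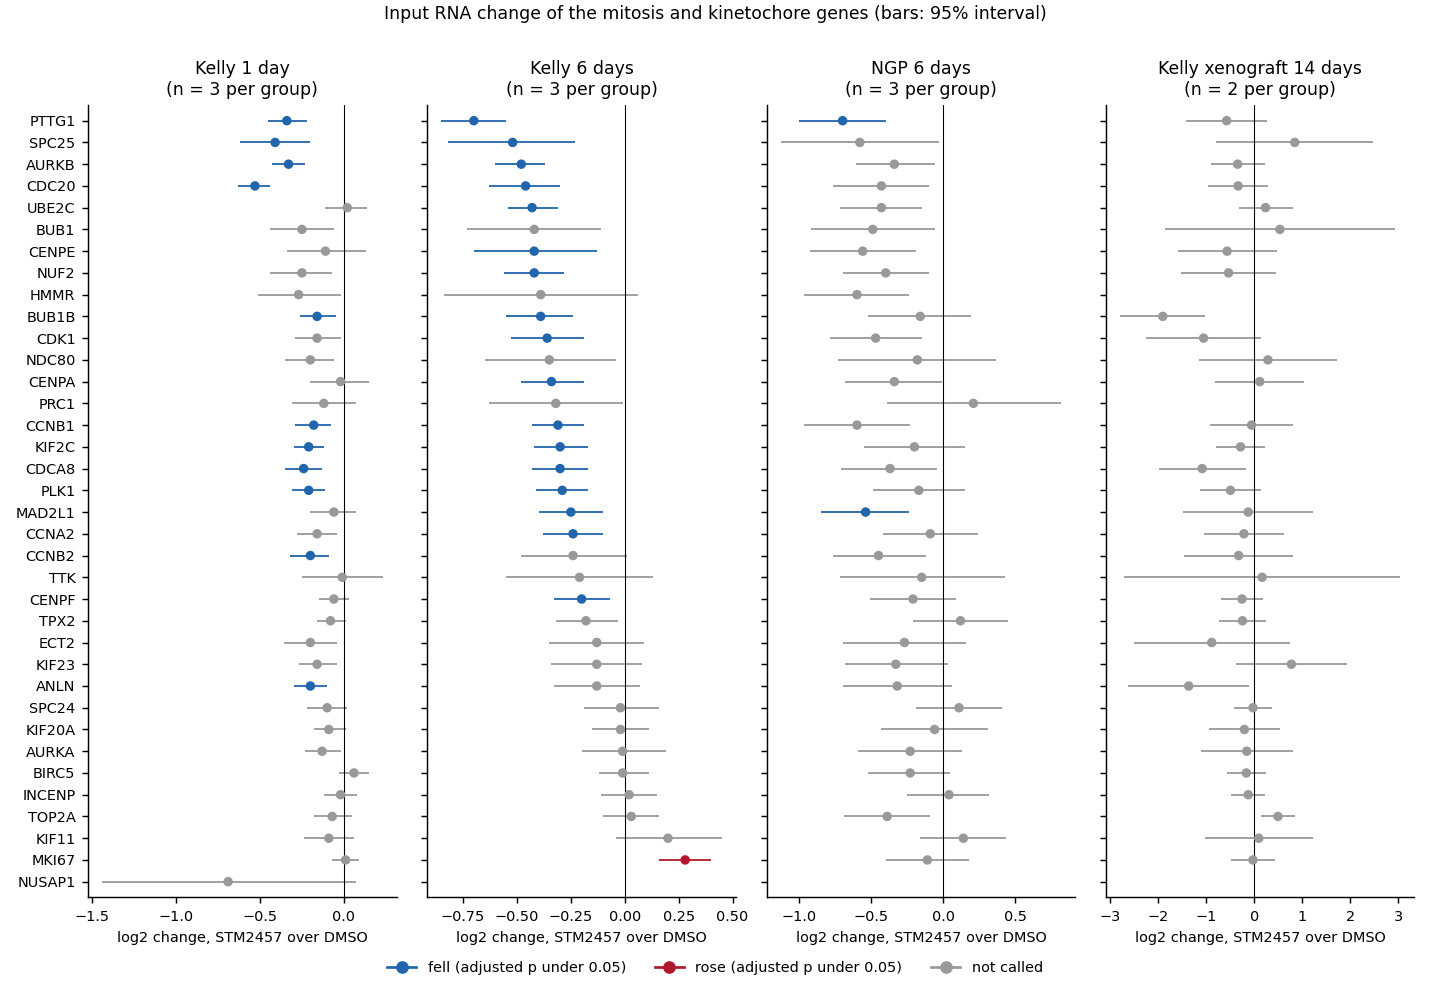
Log2 change of input RNA, STM2457 over DMSO, for the 36 genes (rows, ordered by the change in Kelly at 6 days) in the 4 experiments (panels, each with its own horizontal scale); points are edgeR estimates, bars 95% intervals, blue a fall and red a rise that passed the test, and a missing point a gene that did not pass the filter on low counts. Of the points, 33 of 36 lie below 0 in Kelly at 1 day, 31 of 35 at 6 days, 30 of 35 in NGP and 24 of 33 in the xenografts, where no gene passed the test.

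Among the cyclins, CCNB1 (cyclin B1, which activates CDK1 at mitotic entry) had 174, 154 and 166 CPM with DMSO and 143, 146 and 147 CPM with STM2457 at 1 day. At 6 days it had 160, 165 and 164 CPM with DMSO and 137, 133 and 124 CPM with STM2457. Every treated library lay below every DMSO library at both times, with a log2 change of -0.18 (SE 0.053, adjusted p = 0.0234) and then of -0.31 (SE 0.062, adjusted p = 0.00146). CDK1 itself, the kinase that starts mitosis, had 92.7, 104 and 113 against 96.1, 93.4 and 88.5 CPM at 1 day, and the groups overlapped (log2 -0.16, adjusted p = 0.123). At 6 days it fell from 64.5, 62.2 and 63.6 to 54.1, 49.3 and 42.8 CPM, with no overlap (log2 -0.36, SE 0.086, adjusted p = 0.00524). CCNB2, a second B-type cyclin, fell at 1 day (log2 -0.20, adjusted p = 0.0232) and did not pass at 6 days (-0.24, adjusted p = 0.176). CCNA2, cyclin A2 of S phase and G2, was at -0.16 at 1 day (adjusted p = 0.0862) and fell by 0.24 at 6 days (adjusted p = 0.0212).

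The kinases did not move alike. AURKB, the catalytic subunit of the chromosomal passenger complex, had 193, 179 and 183 CPM with DMSO and 147, 141 and 153 CPM with STM2457 at 1 day. Its 6 day levels were 174, 177 and 171 CPM against 123, 125 and 126 CPM. The treated libraries of each time lay well below their controls, with a log2 change of -0.33 (SE 0.0513, adjusted p = 0.000248) and -0.48 (SE 0.0587, adjusted p = 1.7e-05). PLK1, which acts from mitotic entry to cytokinesis, fell at 1 day, when it had 253 ± 12.7 CPM with DMSO and 219 ± 8.67 CPM with STM2457 (SD, n = 3), and again at 6 days (160 ± 7.85 and 131 ± 1.89 CPM) (adjusted p = 0.00836 and 0.00253). AURKA, the kinase of spindle poles, was at 120 ± 6.26 against 110 ± 3.44 CPM at 1 day and 33.3 ± 1.63 against 32.8 ± 3.28 CPM at 6 days, and passed at neither time (adjusted p = 0.13 and 0.961). Of the other passenger subunits CDCA8 (borealin) fell at both times, by 0.24 and 0.30 on the log2 scale (adjusted p = 0.00575 and 0.00356). The scaffold INCENP was at -0.02 and 0.02, and BIRC5 (survivin) at 0.06 and -0.01, none of them called.

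At the step from metaphase to anaphase act CDC20, which had the largest called fall at 1 day, and PTTG1, which had it at 6 days. CDC20, the activator of the anaphase promoting complex, had 181, 173 and 178 CPM with DMSO and 120, 122 and 124 CPM with STM2457 at 1 day (log2 -0.53, SE 0.0483, adjusted p = 1.51e-06). The 6 day values were 97.4, 103 and 120 CPM against 76.6, 82.9 and 71.2 CPM (log2 -0.46, SE 0.0829, adjusted p = 0.000576). PTTG1 (securin, the inhibitor of separase) had 128, 117 and 120 CPM against 90.5, 97 and 102 CPM at 1 day, and 148, 140 and 143 CPM against 98.1, 87.9 and 77.7 CPM at 6 days. Its groups overlapped at neither time, and the log2 change was -0.34 (SE 0.0592, adjusted p = 0.000807) and -0.70 (SE 0.0763, adjusted p = 5.91e-06). UBE2C, the ubiquitin-conjugating enzyme of that complex, differed between the times: 115, 109 and 102 against 101, 119 and 111 CPM at 1 day, and 122, 119 and 125 against 90.3, 89.8 and 92.4 CPM at 6 days. The groups overlapped at 1 day (log2 0.02, adjusted p = 0.89) and were far apart at 6 days (log2 -0.43, SE 0.0607, adjusted p = 7.63e-05).

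Of the checkpoint genes, BUB1B (BubR1, part of the complex that holds CDC20 back) fell at both times, by 0.16 (adjusted p = 0.0452) and 0.39 (adjusted p = 0.00133) on the log2 scale. MAD2L1, its partner in that complex, was at -0.06 at 1 day and fell by 0.25 at 6 days (adjusted p = 0.0259). The kinase BUB1 had 38.5, 35.9 and 42.5 against 31.6, 37.8 and 29 CPM at 1 day, and 11.3, 13.8 and 14.8 against 9.45, 11.3 and 8.26 CPM at 6 days. Its groups touched or overlapped at both times and neither change passed (log2 -0.25, adjusted p = 0.089, and -0.42, adjusted p = 0.0625). TTK, which starts the checkpoint signal, was at -0.01 and -0.21, not called.

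The NDC80 complex, which binds kinetochores to microtubules, moved unevenly among its 4 subunits. SPC25 had 19, 20.8 and 22.5 CPM with DMSO and 15.4, 17.1 and 14.4 CPM with STM2457 at 1 day (log2 -0.41, SE 0.108, adjusted p = 0.0132). At 6 days it had 18.6, 19.8 and 19.8 against 16.7, 11.9 and 10.6 CPM (log2 -0.52, SE 0.151, adjusted p = 0.017), again without overlap. NUF2 fell at 6 days by 0.42 (adjusted p = 0.000429) and was at -0.25 at 1 day (adjusted p = 0.0736). NDC80 itself was at -0.20 (adjusted p = 0.0713) and -0.35 (adjusted p = 0.113), and SPC24 at -0.10 and -0.02, none of them called. CENPA, the histone that marks centromeres, had 29.1, 35 and 34.7 against 30.6, 34.5 and 32.3 CPM at 1 day, which overlap. At 6 days it fell from 93, 92.9 and 92.8 to 69, 72.2 and 81.7 CPM (log2 -0.34, SE 0.0726, adjusted p = 0.00257). The motor CENPE and the coat protein CENPF also fell at 6 days, by 0.42 (adjusted p = 0.042) and 0.20 (adjusted p = 0.0336), and did not pass at 1 day.

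Few motors and spindle proteins passed. KIF2C, a microtubule depolymerase, fell at both times by 0.21 and 0.30 on the log2 scale (adjusted p = 0.00484 and 0.00231). ANLN, an actin binder of the cleavage furrow, fell at 1 day by 0.20 (adjusted p = 0.00942) and was at -0.13 at 6 days. KIF11, KIF23, KIF20A, TPX2, PRC1, ECT2 and HMMR were called at neither time, with log2 values between -0.27 and -0.08 at 1 day and between -0.39 and 0.20 at 6 days. NUSAP1 had only 1.5, 1.51 and 1.58 CPM with DMSO and 1.32, 1.1 and 0.414 CPM with STM2457 at 1 day, and its change did not pass (log2 -0.69, SE 0.386, adjusted p = 0.247).

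TOP2A and MKI67, which are widely used as labels of dividing cells, did not follow the falling genes. TOP2A, which untangles chromosomes, was at 430 ± 40.1 against 411 ± 19.9 CPM at 1 day and at 132 ± 6.99 against 135 ± 5.85 CPM at 6 days (SD, n = 3), and was called at neither time. MKI67, the Ki-67 antigen that coats mitotic chromosomes, had 847, 784 and 794 against 810, 814 and 820 CPM at 1 day, which overlap. At 6 days it had 265, 252 and 262 CPM with DMSO and 337, 308 and 301 CPM with STM2457, all higher (log2 0.28, SE 0.0627, adjusted p = 0.00324). It was the only member that rose in any of the 4 input comparisons when each experiment was fitted alone.

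**Figure D2:**
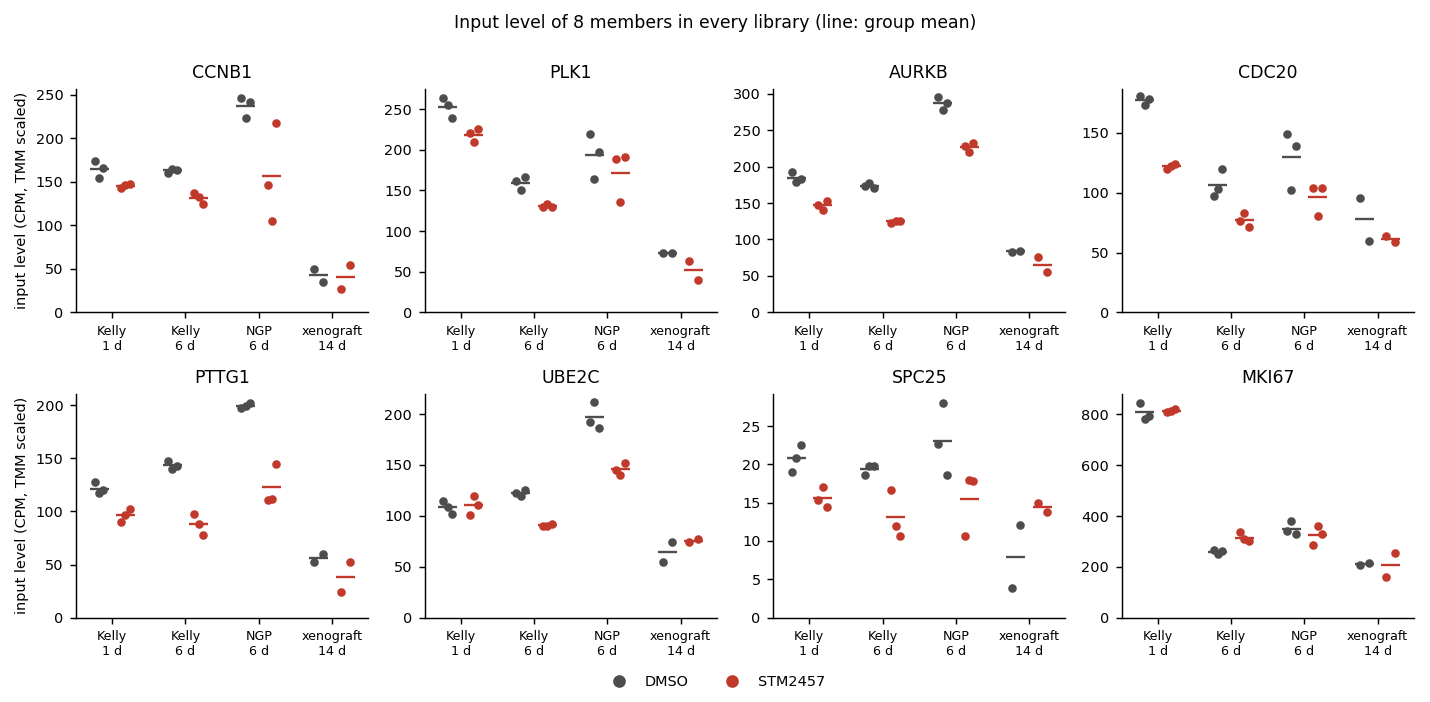
Input level in CPM (vertical axis, from 0) of 8 members in every input library of the 4 experiments (horizontal axis), grey with DMSO and red with STM2457, with a line at each group mean. PTTG1 lies lower with STM2457 in every library of the 3 culture experiments, CDC20 lies lower in both Kelly culture experiments, UBE2C is lower at 6 days but not at 1 day in Kelly, and MKI67 is higher at 6 days in Kelly.

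Leaving out libraries in turn showed which calls rest on all of them. At 1 day 4 of the 11 falls passed whichever library was left out (AURKB, CDC20, KIF2C and PTTG1). The count was 5 without STM2457 replicate 1 and 7 without STM2457 replicate 3, and PLK1 was lost only without STM2457 replicate 2 (adjusted p = 0.0599). SPC25 was lost without STM2457 replicate 1 or 3 (adjusted p = 0.0594 and 0.0655), and CDCA8 and ANLN without STM2457 replicate 1 (adjusted p = 0.0501 and 0.0719). CCNB1 and CCNB2 were lost without any 1 of DMSO replicate 1 and the 3 STM2457 libraries (adjusted p from 0.064 to 0.117 and from 0.0527 to 0.113), and BUB1B without DMSO replicate 3 or any STM2457 library (0.0898 to 0.19). At 6 days 12 of the 17 falls and the rise of MKI67 passed throughout. SPC25 was lost there without DMSO replicate 2 or 3 (0.059 each) or STM2457 replicate 2 (0.102), and CCNA2, MAD2L1, CENPE and CENPF without 4 or more of the 6 libraries (adjusted p from 0.0553 to 0.179). In a single fit of all 22 inputs, which shares 1 estimate of the spread with the more variable NGP and xenograft libraries, 0 members fell at 1 day (beside 0.0562% of all genes) and 3 at 6 days (AURKB, UBE2C and PTTG1, beside 3.17%), where 0 rose (beside 2.39%).

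Whether the response itself differed between 1 and 6 days in Kelly was tested as an interaction. In it 3 of 36 members passed, about the same share as the 8.41% of all 13773 genes tested (4.73% lower and 3.67% higher). The difference, 6 days minus 1 day, was -0.43 for UBE2C (SE 0.0921, adjusted p = 0.00409) and -0.34 for PTTG1 (SE 0.101, adjusted p = 0.0387), and 0.29 for MKI67 (SE 0.0791, adjusted p = 0.0236). The calls of PTTG1 and MKI67 were fragile. PTTG1 was lost without any 1 of 9 libraries: Kelly 1 day DMSO replicates 2 and 3 and STM2457 replicates 2 and 3, and Kelly 6 days DMSO replicates 1 to 3 and STM2457 replicates 2 and 3 (adjusted p from 0.0675 to 0.156). MKI67 was lost without Kelly 1 day DMSO replicate 1 or any Kelly 1 day STM2457 replicate (0.0542 to 0.068). The 1 day and 6 day libraries lie in separate folders per the file headers, so any difference in preparation and the time cannot be told apart.

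In NGP, 2 of the 35 members tested fell and 0 rose, beside 2.16% of all 12289 genes tested that fell and 2.07% that rose. The median log2 change of the members was -0.32 against 0.01 over all genes, and 30 of 35 were below 0. Without adjustment 14 members were lower at a p under 0.05 and 0 higher, beside 2154 of the 12289 genes in either direction. DESeq2 called 4 members lower and 0 higher. PTTG1 had 198, 199 and 202 CPM with DMSO and 111, 112 and 145 CPM with STM2457 (log2 -0.70, SE 0.154, adjusted p = 0.0089). MAD2L1 had 169, 145 and 159 against 108, 96.2 and 121 CPM (log2 -0.54, SE 0.154, adjusted p = 0.0437). Both sets of treated libraries lay wholly below the controls, but PTTG1 was lost without DMSO replicate 3 or STM2457 replicate 1 (adjusted p = 0.0543 and 0.103), and MAD2L1 without DMSO replicate 1 or 3 or STM2457 replicate 1 or 2 (0.141 to 0.18). In the single fit of all 22 inputs, 7 NGP members fell and 0 rose, beside 4.51% and 4.39% of all genes.

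The other members did not pass in NGP. CCNB1 had 246, 223 and 242 against 146, 105 and 217 CPM (log2 -0.60, SE 0.189, adjusted p = 0.0733), with no overlap but a wide treated group. AURKB had 295, 278 and 287 against 228, 220 and 233 CPM (log2 -0.34, SE 0.141, adjusted p = 0.197), and CDK1 155, 153 and 152 against 85.3, 116 and 131 CPM (log2 -0.47, adjusted p = 0.115). The remaining genes followed throughout were PLK1 (log2 -0.17), AURKA (-0.23), BUB1 (-0.49), CENPA (-0.34), NDC80 (-0.18), BIRC5 (-0.23), TOP2A (-0.39) and MKI67 (-0.11), none called. The spread between samples was larger here, with a common biological coefficient of variation of 0.24 against 0.0725 and 0.0913 in Kelly at 1 and 6 days. The difference of the response between Kelly at 6 days and NGP passed for 0 of 36 members by edgeR, beside 1.36% of all 13448 genes tested (0.565% higher and 0.796% lower). At an unadjusted p under 0.05 there were 2 members, beside 1747 of all genes tested, and DESeq2 called 0 members. For PTTG1 the difference was 0.02 (SE 0.164).

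Across the 3 culture experiments, 26 of the 35 members tested in each had a log2 change below 0 in all 3, against 22.1% of the 11596 genes tested in each. PTTG1 was the only member that passed in all 3.

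In the xenografts 0 of the 33 members tested passed in either direction by edgeR or by DESeq2, beside 0 of 11329 genes (0% in each direction). At an unadjusted p under 0.05, 2 members were lower and 1 higher, beside 968 of the 11329 genes in either direction, a similar share. The median was -0.21 against -0.01 over all genes, and 24 of 33 were below 0. BUB1B had 43.2 and 56.1 CPM with vehicle and 15.3 and 10.8 CPM with STM2457 (log2 -1.91, SE 0.45, adjusted p = 0.423), and CDK1 19.7 and 22.2 against 8.79 and 11.3 CPM (log2 -1.06, SE 0.611, adjusted p = 0.673). CCNB1, with 49.9 and 34.8 against 27 and 54.7 CPM, overlapped (log2 -0.06), as did MKI67 with 209 and 214 against 159 and 255 CPM (-0.03). PLK1 was at -0.50, AURKA at -0.16, AURKB at -0.35, BUB1 at 0.53, CENPA at 0.11, NDC80 at 0.28, BIRC5 at -0.17 and TOP2A at 0.49. With 2 samples a group, shallow inputs and a common biological coefficient of variation of 0.448, changes of the size seen in culture were not detectable here.

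Levels per length allow a rough comparison between genes, whose order depends on the length used. The length here is that of all annotated exons of a gene. For some genes it is well above that of the longest transcript (AURKB 2241 and 1254 bases, PTTG1 1975 and 1070), which lowers their level. For TPX2 both are 3605 bases. With DMSO, the median member stood at 27.7 CPM per kilobase of exon in Kelly at 1 day, 22.3 at 6 days, 35 in NGP and 13.3 in the xenografts. On this scale TPX2, a spindle assembly factor, was the highest in Kelly at 1 day (92.5 ± 5.22, SD, n = 3). It was followed by CDC20 (74.9 ± 2.77), UBE2C (72 ± 4.92) and AURKB (70.2 ± 3.74), and these 3 do not differ beyond their spread. At 6 days UBE2C (103 ± 2.26) led AURKB (84.1 ± 1.59) and PTTG1 (79 ± 2.2), and NGP had the same leading 3, at 148 ± 9.89, 124 ± 3.71 and 98.2 ± 1.11. NUSAP1 and PRC1, the genes that share exons, were among the lowest 4 in each of these groups. Summed over the members, the level with DMSO was 1150 to 1201 in Kelly at 1 day and 1038 to 1066 with STM2457. At 6 days the sums were 1036 to 1075 and 845 to 899, and in NGP 1472 to 1622 and 1202 to 1388. The treatments did not overlap in any of these 3 experiments or in the xenografts (664 to 727 and 604 to 620). The xenograft sums rest on 2 libraries in each group, where 9 of 33 members had a log2 change above 0 and none passed. The sums were not tested or set beside sums over other genes.

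The m6A RIP libraries give, for each gene, the ratio of its share in the RIP over its share in the input. TMM scaling sets the typical gene of an experiment near a log2 ratio of 0, so a ratio here says only whether a gene was caught more or less than the typical gene. With the 13 mitochondrial messenger RNAs as the reference instead, the median gene moved from -0.07 to 1.57 in Kelly at 1 day, from -0.10 to 4.77 at 6 days, from 0.08 to 0.86 in NGP and from -0.16 to 2.02 in the xenografts. Enriched and depleted below mean a log2 ratio of at least 1 or at most -1 that passed the test.

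With DMSO, most members were caught less than the typical gene in Kelly and about as much in NGP. In Kelly at 1 day 25 of 36 were depleted and 3 enriched, beside 29.1% and 26.3% of all 13669 genes tested (median -1.75 against -0.07). With the mitochondrial reference the split was 4 depleted and 8 enriched, beside 8.16% and 50.9%. At 6 days 23 of 35 were depleted and 4 enriched, beside 27.3% and 25.8% of 13324 genes (median -2.17 against -0.10), and with the mitochondrial reference 0 and 27, beside 0.48% and 83%. In NGP 5 of 36 were depleted and 6 enriched, beside 19% and 20.9% of 13088 genes (median 0.11 against 0.08), and with the mitochondrial reference 2 and 16, beside 7.38% and 40.3%. A reference shifts all genes of a library alike, so it moves these counts while the distance between the members' median and that of all genes is nearly fixed (-1.68 at 1 day, -2.07 at 6 days and 0.03 in NGP with TMM scaling).

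**Figure D3:**
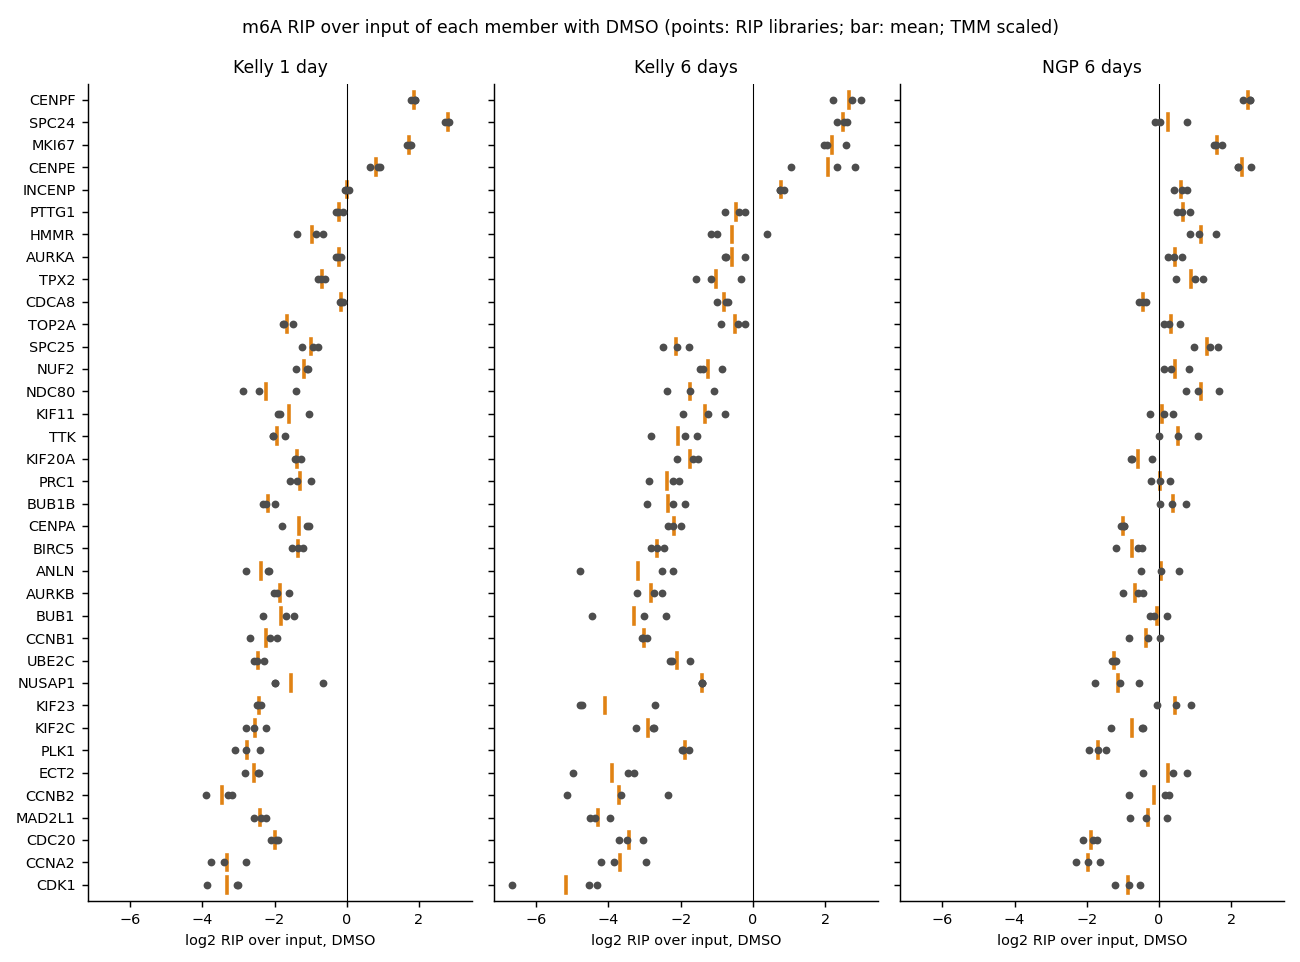
Log2 ratio of RIP over input with DMSO (horizontal axis, TMM scaled, relative to the typical gene) for the 36 genes (rows, ordered by the mean over the 3 culture experiments); grey points are the 3 RIP libraries of each experiment, each against the mean input of its group, and orange bars their mean. CENPF, SPC24, MKI67 and CENPE lie at the right in both Kelly experiments, most others at the left, and in NGP most lie near 0. With the mitochondrial reference the positions shift to the right, and the median of all genes at 6 days in Kelly moves from -0.10 to 4.77.

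CENPF and MKI67 were enriched in all 4 experiments, 2 of the 35 members tested in each, beside 1.13% of the 11679 genes tested in each. CENPF had 2215, 2393 and 2384 CPM in the DMSO RIP libraries of Kelly at 1 day, against 619, 631 and 684 CPM in the inputs on the same scale. At 6 days the RIP libraries had 1053, 1805 and 1524 CPM, in NGP 2234, 2529 and 2532 CPM, and in the xenografts 999 and 535 CPM. All of these RIP values lay above all matching inputs, with log2 ratios of 1.85 (SE 0.0549, adjusted p = 9.2e-12), 2.69 (SE 0.513, adjusted p = 0.000696), 2.47 (SE 0.188, adjusted p = 5.72e-10) and 2.12 (SE 0.473, adjusted p = 0.0446). MKI67 was at 1.73, 2.22, 1.61 and 2.09. SPC24, a subunit of the NDC80 complex, was enriched in Kelly at both times and in the xenografts (2.80, 2.50 and 2.44). In NGP it was at 0.29 (adjusted p = 0.238), with 502, 295 and 272 CPM in the RIP libraries against inputs of 308, 233 and 330 CPM. CENPE was enriched at 6 days in Kelly and in NGP (2.27 and 2.33), and at 0.82 in Kelly at 1 day. The longest exons of MKI67 and CENPF have 6845 and 3404 bases in the transcript used, and that of MAD2L1, which was depleted in Kelly, has 4668. Over the members the ratio was weakly related to the length of the longest exon. Spearman's rho was 0.23 over 36 genes in Kelly at 1 day and 0.15 in NGP, beside 0.29 and 0.34 over all genes tested. With transcript length and number of exons rho was 0.40 and 0.41 in NGP, beside 0.23 and -0.17 over all genes. In Kelly at 1 day these were 0.15 and 0.01, beside 0.16 and -0.31. All are descriptions across genes of the same libraries.

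At the bottom of the order by the mean of all 4 experiments were PLK1, CCNA2 and MAD2L1. PLK1 had 46.2, 28.1 and 35.5 CPM in the DMSO RIP libraries of Kelly at 1 day against inputs of 262, 246 and 232 CPM, and was depleted at 1 day (-2.75), at 6 days (-1.90) and in NGP (-1.69). CCNA2 was depleted in the same 3 experiments (-3.33, -3.70 and -1.95). MAD2L1 was depleted in Kelly (-2.42 and -4.47) and at -0.26 in NGP (adjusted p = 0.305). Their rank owes much to the xenografts, where the DMSO RIP libraries held 0 and 0 CPM of PLK1, 0 and 0.102 CPM of CCNA2, and 0.0767 and 0 CPM of MAD2L1. There the PLK1 input was at least 272-fold above the floor of 3 counts per RIP library. ANLN and BUB1 also had no count in either RIP library, with inputs at least 77.7-fold and 15.2-fold above it. Counts swung widely between these libraries, as with 299 and 0 counts of PRC1 and 475 and 3 of KIF23 with DMSO. With STM2457 the RIP libraries held 17 and 624 counts of PLK1 and 64 and 423 of ANLN. The folds thus describe these libraries only. Over the 3 culture experiments alone the lowest means were those of CDK1 (-3.13), CCNA2 (-2.99) and CDC20 (-2.45), named after their values were seen. With the mitochondrial reference PLK1, CCNA2 and MAD2L1 stood at 3.11, 1.58 and 0.61 in Kelly at 6 days and MAD2L1 at 0.44 in NGP, above 0 like most genes.

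In the xenografts 3 members were enriched (CENPF, MKI67 and SPC24) and 2 depleted (PLK1 and ANLN), beside 1.61% and 2.15% of all 12626 genes tested, with a median of -0.75 against -0.16. No member passed with the mitochondrial reference, nor did any other gene (0%). At TMM scaling 8 of 36 members were past a p of 0.05 before adjustment, beside 3015 of the 12626 genes, a similar share. By DESeq2 3 members were enriched and 4 depleted. The 3 enriched calls were lost without any 1 of the 4 inputs or of the 2 DMSO RIP libraries. The depleted count was 1 without either DMSO input, 0 without either STM2457 input or either DMSO RIP library, and 4 without either STM2457 RIP library.

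Between the lines, 23 of 35 members were depleted at both Kelly times, beside 22.1% of the 13025 genes tested at both. Of them 5 were depleted in NGP as well (CCNA2, PLK1, CDC20, CENPA and UBE2C), beside 10.8% of the 12218 genes tested in the 3 experiments. NDC80 and SPC25 were depleted at both Kelly times and enriched in NGP (1.25 and 1.39), beside 0.638%. The difference in the DMSO ratio between Kelly at 6 days and NGP was added as a test after the values had been seen. Of the 36 members, 29 were lower in Kelly and 2 higher, beside 23.9% and 22.2% of all 13684 genes tested. With the mitochondrial reference, which puts the median gene 3.86 higher in Kelly, 0 were lower and 22 higher, beside 0.84% and 76.4%. Among the members with at least 10 RIP counts in every DMSO library, MAD2L1 and SPC25 were lowest, at -4.05 (SE 0.354, adjusted p = 2.1e-06) and -3.43 (SE 0.395, adjusted p = 1.4e-05). SPC24 was higher by 2.38 (SE 0.308, adjusted p = 3.17e-05) and MKI67 by 0.78 (SE 0.247, adjusted p = 0.0179). MKI67 was lost without DMSO input replicate 2 of Kelly (adjusted p = 0.052) or of NGP (0.0779). The lines belong to separate experiments and the labels name no batch, so line and any batch cannot be told apart.

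With STM2457, ratios of RIP over input changed in Kelly at 1 day for 15 of the 36 members. Of these 12 rose and 3 fell relative to the typical gene, beside 9.53% and 7.62% of all 13669 genes tested, and the median change was 0.46 against -0.03. With the mitochondrial reference, under which the median gene fell by 1.47, the split turned to 0 that rose and 18 that fell, beside 0.0951% and 61.1%. The sign of a single gene's change can thus depend on the scaling. The DMSO ratio and this change share the DMSO libraries, and the input change shares the inputs with it.

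The log2 ratio of PTTG1 was -0.25, -0.11 and -0.29 in the DMSO libraries and 1.18, 0.88 and 1.11 in the STM2457 libraries, a rise of 1.28 (SE 0.136, adjusted p = 4.76e-05). SPC25 went from -0.93, -0.80 and -1.23 to 1.15, 0.92 and 0.22, a rise of 1.85 (SE 0.368, adjusted p = 0.00422). CDK1 went from -3.02, -3.03 and -3.87 to -1.80, -0.92 and -1.92, a rise of 1.83 (SE 0.378, adjusted p = 0.00533). None of these 3 genes' groups overlap, and with the mitochondrial reference the changes of PTTG1, SPC25 and CDK1 were -0.16, 0.41 and 0.36 and did not pass (adjusted p = 0.417, 0.395 and 0.428). The other 9 that rose were AURKB, BUB1B, MAD2L1, CDC20, KIF23, TOP2A, NUF2, UBE2C and ANLN, by 0.49 to 1.53. Of these 9, MAD2L1 was at 0.10 with the mitochondrial reference and the others between -0.96 (CDC20) and -0.20 (KIF23). The 3 that fell were SPC24 by 0.44 (SE 0.132, adjusted p = 0.038), TPX2 by 0.40 (SE 0.104, adjusted p = 0.0199) and CENPF by 0.33 (SE 0.0752, adjusted p = 0.00927). With the mitochondrial reference these 3 fell as well, at -1.88, -1.84 and -1.77 (adjusted p = 5.7e-07, 1.31e-07 and 1.08e-08). Under that reference the median gene was at -1.47, and 61.1% of all genes fell.

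Several of these 15 calls rest on single libraries. SPC24 was lost with DESeq2 (adjusted p = 0.0766), with RLE size factors (0.105), with no filter on low counts (0.125) and without any 1 of the 6 inputs or the 3 DMSO RIP libraries (0.0509 to 0.0973). TPX2 was lost with RLE size factors (0.0679), with no filter (0.107) and without DMSO input replicate 2 or 3, STM2457 input replicate 2 or 3 or DMSO RIP replicate 2 (0.0501 to 0.0588). Of those that rose, KIF23 was lost without any 1 of the 6 inputs or the 3 DMSO RIP libraries (0.0577 to 0.0755), and TOP2A without any 1 of the 6 inputs, DMSO RIP replicate 1 or 2 or STM2457 RIP replicate 1 or 2 (0.0646 to 0.122). CDC20 was lost without DMSO input replicate 1 or 3 or STM2457 input replicate 1 or 2 (0.0545 to 0.0653), and ANLN without STM2457 input replicate 1 (0.0504). CENPF was lost with no filter (0.151) and without DMSO RIP replicate 3 (0.118), while PTTG1, SPC25, CDK1, AURKB, BUB1B, MAD2L1, NUF2 and UBE2C passed whichever library was left out. The inputs and the RIP libraries of Kelly at 1 day lie in separate folders per the file headers, so a difference in their handling, if there was one, and the ratio itself cannot be told apart.

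**Figure D4:**
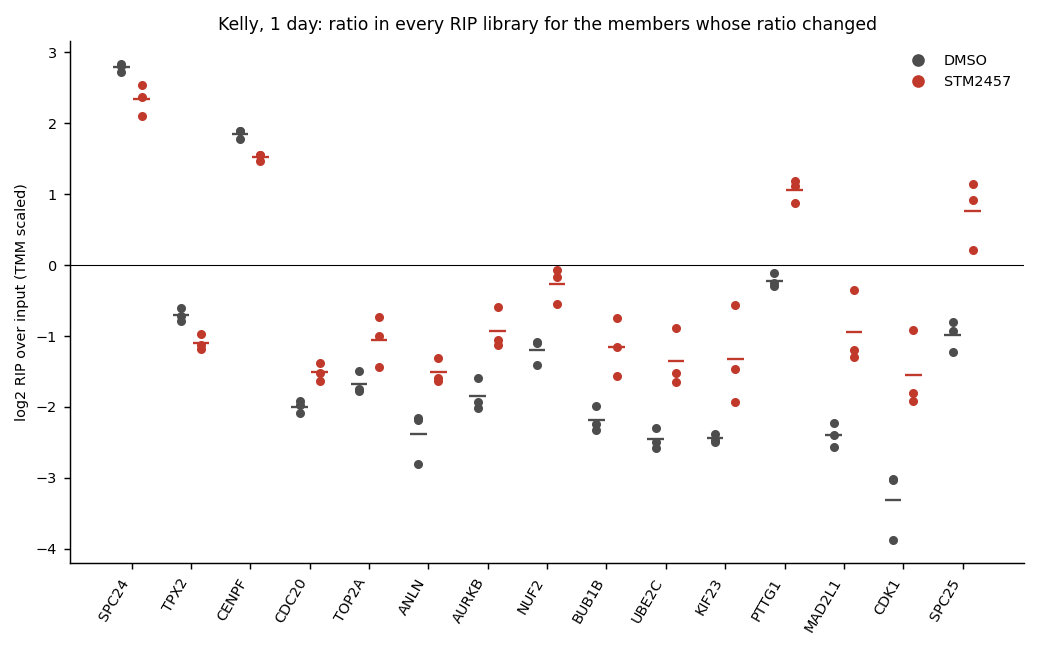
Log2 ratio of RIP over input (vertical axis, TMM scaled, relative to the typical gene) in Kelly at 1 day for the 15 members whose ratio changed with STM2457 (horizontal axis, ordered by the change); points are RIP libraries, grey with DMSO and red with STM2457, and lines group means. The 3 genes at the left fell and the other 12 rose relative to the typical gene, and PTTG1 and SPC25 cross from below 0 to above 0; with the mitochondrial reference 0 members rose.

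At 6 days in Kelly 2 of 35 members rose and 0 fell, beside 1.26% and 0.803% of all 13324 genes tested. At an unadjusted p under 0.05 there were 5 members, all higher, beside 2207 of all genes in either direction. DESeq2 called 3 members, all higher. AURKB had a log2 ratio of -2.51, -3.20 and -2.74 with DMSO and -1.19, -1.58 and -1.09 with STM2457, without overlap (a rise of 1.54, SE 0.273, adjusted p = 0.0206). PTTG1 went from -0.39, -0.77 and -0.21 to 0.49, 0.64 and 1.06 (a rise of 1.19, SE 0.266, adjusted p = 0.0422). Both turned with the mitochondrial reference, to -0.64 and -1.06, and did not pass there (adjusted p = 0.483 and 0.263). Under that reference 6 other members fell, beside 28.8%, and 0 rose, beside 0.0375%. The count was 0 without any 1 of the 6 inputs (AURKB at 0.071 to 0.0855, PTTG1 at 0.0931 to 0.131), 1 without any 1 of the 3 DMSO RIP libraries (PTTG1 at 0.0604 to 0.0731), and 4 without STM2457 RIP replicate 1, the library that stood apart. With the replicate number as a block neither passed (AURKB at 0.0513 and PTTG1 at 0.0837). In that library CENPF had 4346 CPM, against 1230 and 737 CPM in the other STM2457 RIP libraries, and MKI67 had 3628 CPM, against 1513 and 1189 CPM.

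In NGP 0 of 36 ratios passed in either direction by edgeR, nor did any of the 13088 genes tested (0%). At an unadjusted p under 0.05, 1 member was higher and 0 lower, beside 764 of all genes in either direction, and DESeq2 called 0 members. The median change was 0.29 against -0.00 over all genes. In the xenografts 0 of 36 passed by edgeR, beside 0 of 12626 genes (0%). There 2 members were higher and 0 lower at an unadjusted p under 0.05, beside 809 of all genes in either direction. DESeq2 called 2 members higher. The common biological coefficient of variation of these fits was 0.253 in NGP and 0.99 in the xenografts. Of 2-fold changes planted in simulated data, 4.48% and 0% were recovered, so changes of that size could hardly be detected.

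Falls of input RNA occurred both with and without TTTGAA in the promoter. At 1 day in Kelly 7 of the 22 members with the motif fell and 4 of the 9 without, with a median log2 change of -0.18 in both sets. At 6 days 10 of 21 and 6 of 9 fell, with medians of -0.29 and -0.31, and in NGP 1 of 21 and 1 of 9 fell, with medians of -0.33 and -0.34. Of all genes tested, 8.06% fell at 1 day in Kelly, 14.7% at 6 days and 2.16% in NGP. The sets with and without the motif are small and the comparison was not tested.

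Other genes of the mitotic machinery were read in the same input comparisons, in which 8.06% of all genes fell and 9.41% rose at 1 day, and 14.7% and 11.9% at 6 days. Differences between these lists and the members were not tested. Of 34 other kinetochore and centromere genes, 4 fell and 1 rose at 1 day in Kelly (median -0.08), and 5 of 33 fell and 2 rose at 6 days (median 0.02). CENPH, of the inner kinetochore, fell by 0.67 at 6 days (adjusted p = 4.25e-05). Of 28 other spindle, motor and cytokinesis genes, 3 fell and 1 rose at 1 day (median -0.06) and 2 fell and 4 rose at 6 days (median -0.05), among them the kinesin KIF14, which rose by 0.57 (adjusted p = 0.00643). Of 18 condensin, cohesin and separase genes 6 fell at 1 day and 2 at 6 days, and 0 rose. NCAPG, a condensin subunit, fell by 0.29 and 0.33 (adjusted p = 0.0228 and 0.0333). Of 17 genes of the anaphase promoting complex 2 fell at each time, and the larger fall was that of UBE2S, which extends ubiquitin chains for it (0.22 and 0.41, adjusted p = 0.00594 and 0.00025).

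Of 22 regulators of mitotic entry and of G2/M genes, 3 fell and 2 rose at 1 day in Kelly, 4 fell and 1 rose at 6 days, and 2 fell and 2 rose in NGP. Of all genes tested in NGP, 2.16% fell and 2.07% rose. CDKN1A (p21), which inhibits cyclin-dependent kinases, fell in each of these experiments, by 0.81 (adjusted p = 2.21e-07), 1.38 (3.41e-08) and 1.73 (3.42e-05). FOXM1, an activator of G2/M genes, rose at 6 days in Kelly by 0.41 (adjusted p = 9.63e-05) and in NGP by 0.66 (adjusted p = 0.0102). Of 25 DNA replication genes, 8 fell and 3 rose at 1 day (median -0.15), 2 fell and 1 rose at 6 days (median 0.00), and 0 fell and 2 rose in NGP (median 0.08). FEN1, which trims Okazaki fragments, rose in each, by 0.62, 0.59 and 0.61 (adjusted p = 1.72e-07, 4.51e-06 and 0.0248).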

How the data were processed

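Inputs and m6A RIP libraries were grouped, as labelled, by experiment, by agent and by kind of library. The authors deposited 1 table of raw fragment counts per gene and library. Per the file headers, featureCounts 1.5.3 counted paired fragments over exons by gene name with protein-coding GENCODE 33 (GRCh38) and no strand option, so overlapping and antisense genes were not separated. The submitters' processing notes list FastQC 0.11.5, Trimmomatic 0.36, HISAT2 2.1.0, Subread 1.5.3 and deepTools 2.0. Spike-in RNAs were not analysed here.

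Tests were edgeR 4.0.16 quasi-likelihood tests (R 4.3.3) with TMM factors and filterByExpr (minimum count 10, minimum total 15), two-sided, with Benjamini-Hochberg adjustment over all genes tested at 0.05, each experiment fitted alone. A contrast of RIP and input within 4 groups gave the ratio, and the interaction its change. CPM values are TMM scaled, given per library or as mean ± SD. Ratios per library used CPM plus 0.5 over the mean input of the group. Alternatives were RLE factors, DESeq2 1.42.0, no filter, a replicate block, all 22 inputs in 1 fit, the 13 mitochondrial mRNAs as reference for ratios, and leaving out each library.

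The members, the other gene lists and the rule for named genes (11 fixed genes, the largest falls and rises, extreme ratios, and the members called) were chosen with earlier results of these data known. All 40 replicate pairs differed beyond sampling noise (lowest chi-square per degree of freedom 2.73). The tests were tested on simulated data. Of planted 2-fold input changes, 100% were recovered in Kelly at 1 day, 97% at 6 days, 56.7% in NGP and 10.6% in the xenografts. Of 2-fold ratio changes the shares were 31.3%, 0%, 4.48% and 0%, and of 4-fold ones 69.7%, 15.2%, 77.3% and 0%. A ratio change that did not pass is thus not shown to be absent. Promoters are RefSeq's, and transcripts those of GENCODE 44, in which 99.1% of the members' exons were identical.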

Additional observations from a re-analysis of the deposited data

Results flagged for a closer look

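The input response of 3 members differed between Kelly at 6 days and at 1 day by the interaction test (edgeR, adjusted over all genes): UBE2C (log2 difference -0.43), PTTG1 (-0.34) and MKI67 (0.29). These are 3 of 36, about the same share as the 8.41% of all genes, so the members as a set did not stand out. The calls of PTTG1 and MKI67 were each lost when single libraries were left out.

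In the test added after the values were seen, the DMSO ratio of RIP over input was lower in Kelly at 6 days than in NGP for 29 of 36 members and higher for 2, beside 23.9% and 22.2% of all genes. The values named are MAD2L1 (-4.05), SPC25 (-3.43), SPC24 (2.38) and MKI67 (0.78). Under the mitochondrial reference 0 members were lower and 22 higher, beside 0.84% and 76.4%, so the direction holds only relative to the typical gene.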

How the results depend on the processing

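Of the counts of members called, 114 of 154 values under other settings stayed within 1.5 times the value reported, and those that did not are given here. With all 22 inputs in 1 fit, falls in input numbered 0 in Kelly at 1 day, 3 at 6 days (0 rose), 7 in NGP and 5 in the xenografts (2 rose). In the same order 0.0562%, 3.17%, 4.51% and 11% of all genes fell, and 6.9% rose in the xenografts, so the xenograft counts lie near the share of all genes. DESeq2 called 4 falls in NGP, and 4 depleted and 2 changed ratios (higher) in the xenografts. Without the filter on low counts there were 4 falls in NGP, 1 in the xenografts, 0 falls in ratio in Kelly at 1 day, and in the xenografts 4 depleted and 1 higher ratio; the response difference between the Kelly times then had 2 higher and 1 lower. RLE factors left 1 fall in ratio at 1 day and 1 rise at 6 days. Called at any log2 ratio, NGP had 11 enriched and 10 depleted. With the mitochondrial reference, enriched and depleted members numbered 8 and 4 (Kelly 1 day), 27 and 0 (6 days), 16 and 2 (NGP) and 0 and 0 (xenografts); ratios rose and fell for 0 and 18 at 1 day and 0 and 6 at 6 days; the difference between Kelly and NGP had 22 higher and 0 lower. The same reference put PLK1 at 3.11, CCNA2 at 1.58 and MAD2L1 at 0.61 in Kelly at 6 days, MAD2L1 at 0.44 in NGP, the 6 days ratio changes of AURKB and PTTG1 at -0.64 and -1.06, those at 1 day of PTTG1 at -0.16, KIF23 -0.20, UBE2C -0.28, BUB1B -0.38, AURKB -0.49, NUF2 -0.50, ANLN -0.57, TOP2A -0.81 and CDC20 -0.96, and the differences of MAD2L1 and SPC25 at 0.12 and 0.41. BIRC5 in Kelly at 6 days was at 0.01 with RLE factors and with all inputs in 1 fit. Apart from scaling, the cause of these shifts was not tested.

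The correlation of the deviations of same-numbered libraries was over 0.1 in 0 of 18 pairs in Kelly at 1 day, 3 of 18 at 6 days, 5 of 18 in NGP and 0 of 12 in the xenografts, and the labels do not state that the numbers mark shared samples. With the block, falls in input numbered 5 in NGP, the Kelly 6 days ratio had 0 rises, the xenografts 0 enriched and 1 depleted, and the response difference between the Kelly times 0 higher and 1 lower; the other counts stayed within 1.5 times.

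Leaving out 1 library at a time, falls in input ran from 5 to 13 in Kelly at 1 day, 0 to 3 in NGP and 0 to 3 in the xenografts. Falls in ratio ran from 1 to 4 at 1 day and 0 to 1 at 6 days, and rises from 0 to 4 at 6 days and 0 to 1 in the xenografts. Xenograft enriched members ran from 0 to 3 and depleted from 0 to 4. The response difference ran from 0 to 2 (higher) and 1 to 2 (lower), and the added difference from 1 to 3 (higher). Input values near 0 changed sign: CENPA (-0.10 to 0.02) and MKI67 (-0.01 to 0.05) in Kelly at 1 day, AURKA (-0.07 to 0.05), TOP2A (-0.01 to 0.07) and BIRC5 (-0.01 to 0.01) at 6 days, and CCNB1 (-0.65 to 0.37), BUB1 (-0.05 to 1.53), CENPA (-0.35 to 0.80), NDC80 (-0.25 to 1.14) and MKI67 (-0.41 to 0.26) in the xenografts. The NGP ratio of SPC24 ran from -0.02 to 0.46. The shallowest xenograft input had 2.14 M counts; the part of depth was not tested.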
